A study of Saccharomyces cerevisiae with 27 samples.

Results

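To ask what distinguishes yeast given the conditioned medium of a calorie-restricted (CR) culture from yeast given that of a nonrestricted (NR) culture, 3 CRCM-supplemented cultures of 24 h were compared with 3 NRCM-supplemented cultures of 24 h. They are 6 of the 27 RNA-seq libraries of the series, and 6577 of 6692 listed genes were tested. All cultures were of BY4741, a haploid MATa laboratory strain of Saccharomyces cerevisiae (his3Δ1 leu2Δ0 met15Δ0 ura3Δ0), grown with 2% glucose in SC (synthetic complete) medium. At inoculation they received 2% (vol/vol) of a 10-fold concentrated conditioned medium or sterile water. CRCM was the medium of a day 5 culture begun in 0.5% glucose, and NRCM that of a day 5 culture begun in 2% glucose. The 3 water-supplemented cultures of 24 h give the background level, and the CRCM and NRCM cultures of 96 h (3 each) give the same contrast at a later time. The replicates were stated to be biological. Whether each received its own preparation of conditioned medium is not given, so p-values measure the spread between these cultures only.

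Yeast cells in high glucose first ferment it to ethanol. When the glucose runs out, at the diauxic shift, they slow their growth and derepress respiration and gluconeogenesis. They also store trehalose and glycogen before they enter stationary phase. Supernatants carry amino acids and other small molecules that cells can take up and use, and several of the genes described here belong to pathways that sense such compounds.

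Levels are reads on a gene per 1000000 reads on all genes (CPM), divided by a TMM factor, a scaling that sets the typical gene to the same level in every library. Each value is thus relative to the other transcripts of its culture. In such bulk cultures, fewer cells of a type and less RNA per cell cannot be told apart. Changes are log2 ratios of CPM + 1, CRCM over NRCM, with the standard error (SE) of the fit. A gene was called higher or lower when its adjusted p (limma, Benjamini-Hochberg over all tested genes) was under 0.05. Spreads of group means are SD with n = 3, and adjusted p-values are from limma unless another tool is named.

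Recovered reads numbered 10235338, 7818193, and 114285580 in the CRCM libraries and 11470355, 12374513, and 9384597 in the NRCM libraries. The NRCM libraries were less alike than the CRCM libraries, with a median SD per gene on the log2 scale of 0.179 against 0.0838 for CRCM. NRCM replicate 1 stood apart, at a root mean square log2 distance of 0.472 from the other NRCM libraries, where NRCM replicates 2 and 3 were at 0.258 and 0.274. Values without it are given where they change the call of a named gene, and for some lists only. Leaving it out moved the medians of 10 of the 66 lists by more than their spread between replicates. Reads on the deleted genes matched the strain at 24 h. URA3 and MET17 (the gene deleted by met15Δ0) had 0 reads in all 9 libraries, and LEU2 was at 0.174 CPM or less before scaling. HIS3, whose his3Δ1 allele is a partial deletion, was at 34.03, 37.5 and 41.7 CPM in CRCM cultures, against 34.5, 42.7 and 35.9 CPM in NRCM cultures. Transcripts of a-specific genes were present. Those of α-specific genes were not at 0, and not all were low. Before scaling, MF(ALPHA)1 and MF(ALPHA)2 were at 3.73 to 7.59 CPM in the CRCM and NRCM libraries. SAG1, also before scaling, was at 85.3, 99.3 and 96 CPM in CRCM libraries and 80.7, 77.7 and 74.5 CPM in NRCM libraries. After scaling, 0 of the 4 α-specific genes were called higher or lower, so the unscaled values are not to be read as a rise. The a-specific BAR1, before scaling, was at 70.8, 51.4 and 43.6 CPM in CRCM libraries and 90.8, 105.6 and 109.5 CPM in NRCM libraries. STE3, also α-specific, averaged 33.2 ± 3.11 CPM in CRCM cultures and 30.7 ± 1.39 CPM in NRCM cultures after scaling and was not called. At 96 h, CRCM replicate 3 had 68.1 CPM of LEU2 and 11.7 CPM of URA3, which goes against the genotype of the strain. Many results that use 96 h are given with and without it, and the others include it.

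CRCM-supplemented cells differed from NRCM-supplemented cells across much of the transcriptome. Of 6577 genes, 1464 (22.3%) were called higher and 1306 (19.9%) lower, and 3807 were not called. The counts were uneven in size. More than 2-fold changes comprised 66 genes that rose and 282 that fell, and more than 4-fold changes comprised 1 gene that rose, CHA1, and 28 that fell. Genes that fell were abundant ones, with a median NRCM level of 114 CPM, against 33.6 CPM for genes that rose and 48.8 CPM for all tested genes. Together the genes that fell summed to 2.49e+05 CPM in CRCM cultures and 4.97e+05 CPM in NRCM cultures. The scaling mattered for the calls as well. Without TMM factors the median of all genes moved to 0.34 (log2) and the calls to 3450 higher and 544 lower (86.4% higher, against 52.9% with the factors), so changes are given relative to the typical gene, whose log2 change was 0.0031. The CRCM and NRCM libraries did not overlap for 3544 genes (53.9%), of which 2727 were among those called. Gene lists are described by their counts of calls, to be read against these background shares, and by their median change. Where a list had 0 calls in a direction, it also had 0 at an unadjusted p under 0.05 and by edgeR and DESeq2, unless stated. A few members that went against their list are named in parentheses, having been chosen after their values were seen.

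**Figure D1:**
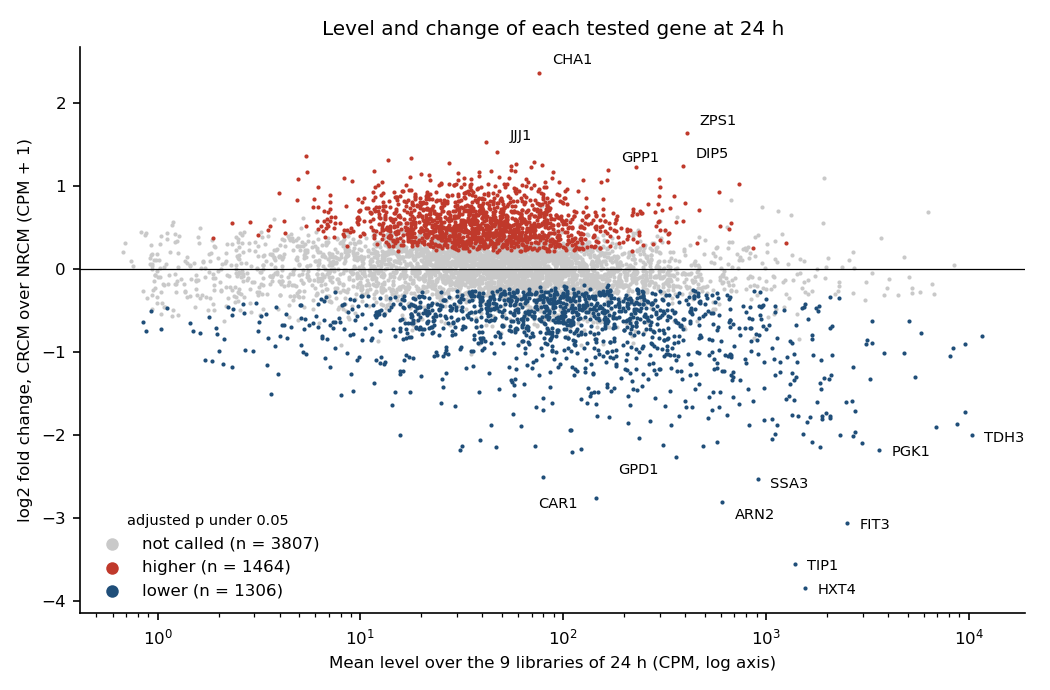
Each point is 1 of the 6577 tested genes, with its mean level over the 9 libraries of 24 h (CPM, log axis) and its log2 fold change, CRCM over NRCM; red points were called higher (1464), blue points lower (1306), and grey points were not called. Falls reach further than rises, and most points over 1000 CPM lie below 0.

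The strongest rise was that of CHA1 (YCL064C), the catabolic deaminase that breaks down L-serine and L-threonine and is induced by them. CHA1 (chromosome III, 15798 to 16880, 15.8 kb from the chromosome end) had 199.6, 187 and 169 CPM in CRCM cultures, against 25.9, 40.9 and 40.5 CPM in NRCM cultures. The groups were far apart, and the water-supplemented cultures lay lower still, at 8.29 ± 0.719 CPM. The log2 fold change was 2.36 ± 0.16 (adjusted p = 2.85e-05), a 5.17-fold difference of means. Of 13 genes of serine and threonine use, 3 rose (CHA1, SER3, and SER33) and 4 fell (SHM1, SHM2, LCB1, and CHO1), with a list median of 0.17. Without TMM factors 7 rose and 0 fell (median 0.53), so the falls depend on the scaling. The call of SER33 was lost without NRCM replicate 3 or any CRCM library (adjusted p 0.0633 to 0.0966). That of LCB1 was lost without NRCM replicate 1 or 2, CRCM replicate 2 or 3, or water replicate 1 (0.0508 to 0.14). The falls were those of serine hydroxymethyltransferases (SHM1 and SHM2) and of enzymes that draw serine into sphingolipids (LCB1) and phosphatidylserine (CHO1). CHA4, the activator of CHA1, averaged 62.1 ± 3.94 CPM in CRCM cultures and 54.8 ± 9.91 CPM in NRCM cultures (adjusted p = 0.254). ILV1, the threonine deaminase of isoleucine synthesis, averaged 111 ± 10.99 CPM in CRCM cultures and 122 ± 8.41 CPM in NRCM cultures (adjusted p = 0.276). Neither was called. SER3, the first enzyme of serine synthesis, averaged 248 ± 11.7 CPM in CRCM cultures and 167 ± 33.3 CPM in NRCM cultures (adjusted p = 0.0117). Its count cannot be separated from that of SRG1, a transcript that overlaps it on the same strand.

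**Figure D2:**
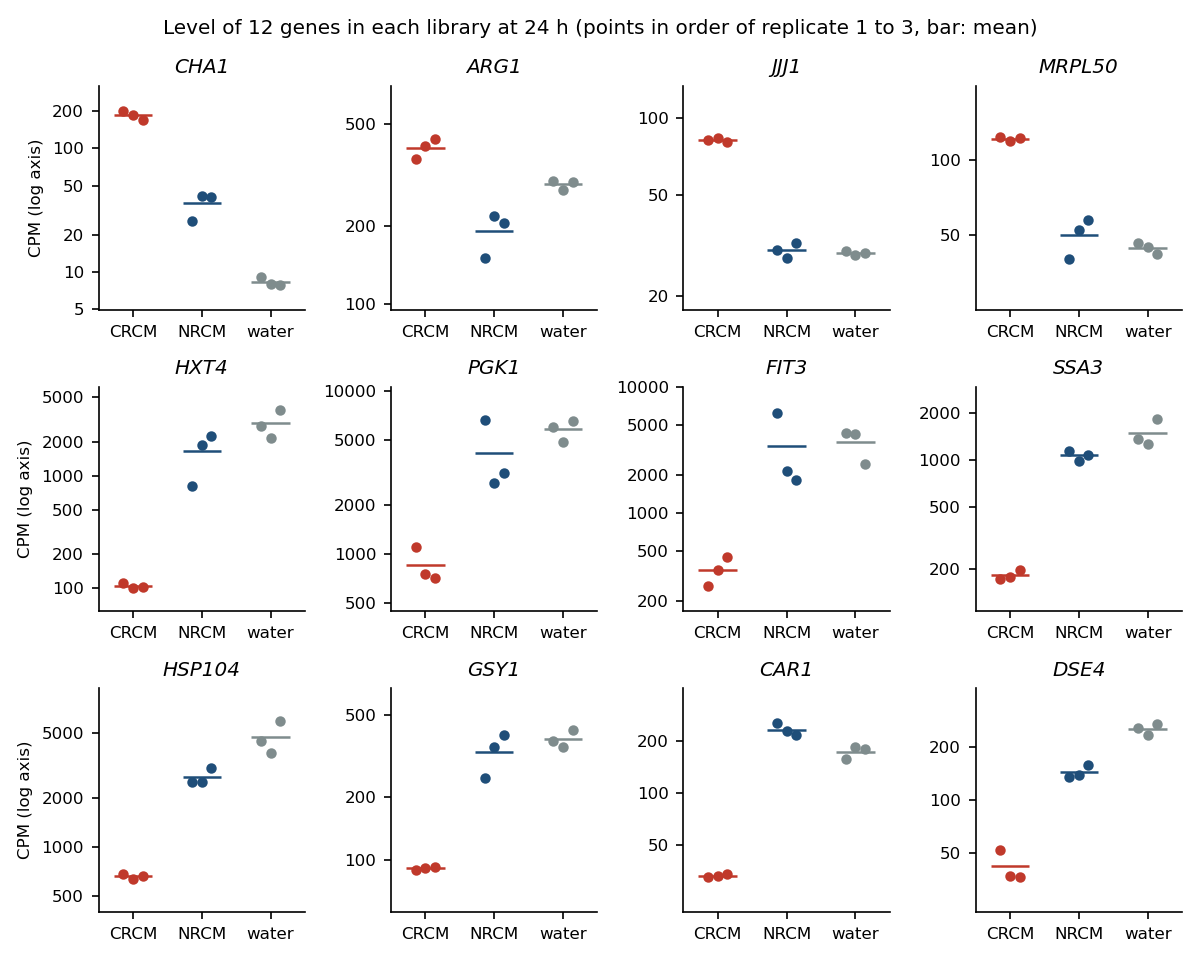
Level in each 24 h library (CPM, log axes) of 12 genes in CRCM-, NRCM-, and water-supplemented cultures; points are the 3 replicates in order and bars their means. In each panel the 3 CRCM points lie outside the range of the 3 NRCM points, as with SSA3 at 172 to 198 CPM in CRCM cultures and 983 to 1141 CPM in NRCM cultures.

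Other large rises concerned the cell surface, ribosome assembly, and mitochondria. ZPS1, a cell wall protein of the zinc response, had 288, 318 and 344 CPM in CRCM cultures, against 86.7, 87.8 and 134 CPM in NRCM cultures (log2 fold change 1.64 ± 0.19, adjusted p = 0.00020). Its level with water was higher than both, at 811 ± 146 CPM. DIP5, the permease for glutamate and aspartate, averaged 672 ± 16.3 CPM in CRCM cultures and 309 ± 134 CPM in NRCM cultures (adjusted p = 0.0103). Ribosome assembly contributed JJJ1, NOP53, and RRP15, polymerase I initiation RRN11, and mitochondria MRPL50 and CMC2, and these are described with their groups. UPF3, a factor of nonsense-mediated mRNA decay, averaged 108 ± 4.28 CPM in CRCM cultures and 45.9 ± 7.74 CPM in NRCM cultures (adjusted p = 0.000111). RHO5, a small GTPase, averaged 383 ± 13.8 CPM in CRCM cultures and 163 ± 8.48 CPM in NRCM cultures (adjusted p = 3.02e-05). Of the remaining 4 of the 15, ARO5 rose by 1.19, YDL177C by 1.31, YNL228W by 1.27, and YKL031W by 1.53 on the log2 scale. The call of YKL031W was lost without CRCM replicate 3 (adjusted p = 0.0571). The 15 largest falls were HXT4, TIP1, FIT3, ARN2, CAR1, SSA3, YHL046W-A (-2.51), GPD1, TIS11, YBR056C-B (-2.19), PGK1, ARO9, YCR013C (-2.15), YHR137C-A (-2.14), and MNC1 (-2.14). Several of the ORFs that are not in the annotation moved with the gene whose systematic name is next to theirs. YCR013C was at 0.498 to 0.536 of the level of PGK1 (YCR012W) in all 9 libraries. The same ratio was 0.362 to 0.406 for YHR137C-A and ARO9 (YHR137W) and 0.543 to 0.638 for YNL228W and JJJ1 (YNL227C). It was 0.927 to 0.985 for YBR056C-B and MNC1 (YBR056W-A), whose changes were -1.43 and -1.39 without NRCM replicate 1. The strand setting of the counting was not given, so reads of such pairs may be shared and each pair is best read as 1 observation.

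Transcripts of glycolysis were lower in CRCM cultures. All 17 listed glycolytic genes fell, against 19.9% of all genes, with a median log2 change of -1.33 (-0.97 without TMM factors and -1.23 without NRCM replicate 1). Together they summed to 22530 to 29000 CPM in CRCM cultures and 51170 to 87060 CPM in NRCM cultures. PGK1, phosphoglycerate kinase, had 1114, 757 and 712 CPM in CRCM cultures, against 6631, 2726 and 3126 CPM in NRCM cultures. Every CRCM culture was below every NRCM culture, but NRCM replicate 1 was more than 2-fold above its replicates, near the 5834 ± 879 CPM of water. The log2 fold change was -2.18 ± 0.32 (adjusted p = 0.000684). ENO2, enolase, averaged 530.2 ± 376 CPM in CRCM cultures and 2062 ± 961 CPM in NRCM cultures (adjusted p = 0.00502). TDH3, glyceraldehyde-3-phosphate dehydrogenase and the most abundant of the list, averaged 2914 ± 595 CPM in CRCM cultures and 11953 ± 3855 CPM in NRCM cultures (adjusted p = 0.00035). The smallest fall of the list was that of PFK1, a phosphofructokinase subunit, at -0.64 (adjusted p = 0.0048), and it was 1 of the 3 not called without TMM factors, which left 14 of 17 called. Reads of the near-identical pairs ENO1 and ENO2, TDH2 and TDH3, and HXT6 and HXT7 may have been split between the copies, so the values of single copies are uncertain.

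HXT4 (chromosome VIII, 287081 to 288811), a high-affinity hexose transporter that is expressed when glucose is low and repressed when it is high or absent, fell furthest of all genes named. It had 111, 99.3 and 103 CPM in CRCM cultures, against 812, 1875 and 2259.8 CPM in NRCM cultures. The CRCM values lay close together and below all NRCM values, of which replicate 1 was the lowest. Their mean was 15.8-fold below the NRCM mean (log2 fold change -3.84 ± 0.34, adjusted p = 6.67e-05), and water gave 2919 ± 854 CPM. Of 19 hexose transport genes 9 fell and 0 rose (median -0.46), but 7 fell and 6 rose without TMM factors (median -0.15). HXT3, a low-affinity transporter, averaged 403 ± 72.6 CPM in CRCM cultures and 895 ± 199 CPM in NRCM cultures (adjusted p = 0.00227). HXT7, a high-affinity transporter, averaged 4569.5 ± 291 CPM in CRCM cultures and 9054 ± 2385 CPM in NRCM cultures (adjusted p = 0.00589). In ethanol and acetate metabolism 11 of 15 genes fell and 1 rose (ADH4, an alcohol dehydrogenase isozyme, 0.49), or 7 and 2 without TMM factors, with a median of -0.59. ADH2, the dehydrogenase that oxidizes ethanol, averaged 157 ± 23.4 CPM in CRCM cultures and 573 ± 263 CPM in NRCM cultures (adjusted p = 0.000849). ADH1, the fermentative enzyme, averaged 1656 ± 347 CPM in CRCM cultures and 3923 ± 1634 CPM in NRCM cultures (adjusted p = 0.00561). PDC1, pyruvate decarboxylase, averaged 803 ± 310.2 CPM in CRCM cultures and 2869.6 ± 2362 CPM in NRCM cultures (log2 fold change -1.60, adjusted p = 0.0206). This value rested on single libraries, being -0.95 without NRCM replicate 1 and not called without CRCM replicate 2 (adjusted p = 0.0725) or CRCM replicate 3 (adjusted p = 0.068). ALD6, the cytosolic acetaldehyde dehydrogenase, was not called (5022 ± 471 against 3896 ± 577 CPM, CRCM against NRCM).

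Gluconeogenic genes did not move as a group. Of 16 genes of gluconeogenesis and the glyoxylate cycle, 3 fell (MDH2, ACS1, and ICL1) and 1 rose (ADY2, an acetate transporter), and the median of -0.15 turned to 0.21 without TMM factors, when 2 fell and 5 rose. ICL1 kept its call without NRCM replicate 1 or water replicate 2, but not without any other single library (adjusted p 0.0572 to 0.138). MDH2, cytosolic malate dehydrogenase, averaged 335 ± 48.2 CPM in CRCM cultures and 1237 ± 139 CPM in NRCM cultures (adjusted p = 5.80e-05). PCK1, phosphoenolpyruvate carboxykinase, was not called, at 3689, 4409 and 4360.2 CPM in CRCM cultures, against 4979.9, 5972 and 4647 CPM in NRCM cultures (adjusted p = 0.333). Nor was FBP1, fructose-1,6-bisphosphatase, at 2184, 2408 and 2433 CPM in CRCM cultures, against 1775, 3847 and 3298 CPM in NRCM cultures (adjusted p = 0.489). Glycerol genes split by their step, 5 of 11 lower and 2 higher, and their median of -0.28 turned to 0.07 without TMM factors. GPD1 and GPD2, the dehydrogenases that make glycerol-3-phosphate, both fell. GPD1 averaged 99.5 ± 9.70 CPM in CRCM cultures and 543 ± 341 CPM in NRCM cultures (adjusted p = 0.000598) and GPD2 111 ± 4.24 CPM in CRCM cultures and 329 ± 30.8 CPM in NRCM cultures (adjusted p = 2.14e-05). GUT2, the mitochondrial enzyme that oxidizes glycerol-3-phosphate, averaged 229 ± 14.4 CPM in CRCM cultures and 752 ± 129 CPM in NRCM cultures (adjusted p = 3.26e-05). The phosphatase GPP1, which acts next in synthesis, rose, with 265 ± 48.6 CPM in CRCM cultures and 117 ± 30.4 CPM in NRCM cultures (adjusted p = 0.00241). Its paralog GPP2 rose by 0.61 on the log2 scale, a call lost without CRCM replicate 1 (adjusted p = 0.0697).

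Storage carbohydrate genes were lower in CRCM cultures. Of 20 genes of trehalose and glycogen metabolism, 15 fell and 1 rose (GIP2, a regulator of the phosphatase Glc7, 0.40), or 12 and 3 without TMM factors, with a median of -0.94. The call of GIP2 was lost without CRCM replicate 1 or 3 or NRCM replicate 2 or 3 (adjusted p 0.0531 to 0.076). GSY1, a glycogen synthase, had 89.1, 90.9 and 92.3 CPM in CRCM cultures, against 248, 349 and 398 CPM in NRCM cultures. The CRCM values were within a few percent of each other and below all NRCM values (log2 fold change -1.83 ± 0.16, adjusted p = 5.67e-05). TSL1, a subunit of the trehalose synthase complex, averaged 514 ± 37.1 CPM in CRCM cultures and 1532 ± 136 CPM in NRCM cultures (adjusted p = 2.59e-05). Breakdown moved with synthesis. GDB1, the glycogen debranching enzyme, averaged 343 ± 18.4 CPM in CRCM cultures and 942 ± 138 CPM in NRCM cultures (adjusted p = 4.62e-05). GPH1, glycogen phosphorylase, averaged 546 ± 4.42 CPM in CRCM cultures and 1448 ± 239 CPM in NRCM cultures (adjusted p = 0.000113). SUC2, the secreted invertase, also fell, averaging 611 ± 34.4 CPM in CRCM cultures and 1739 ± 844 CPM in NRCM cultures (adjusted p = 0.00847). Of 14 genes of maltose and sucrose use 7 fell and 1 rose, or 4 and 1 without TMM factors.

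Heat shock chaperones formed another group that moved in 1 direction, with 27 of 34 lower, 0 higher (1 at an unadjusted p under 0.05, 0 by edgeR, and 1 by DESeq2), and a median of -1.05 (-0.71 without TMM factors, when 22 fell and 2 rose). Summed over the list, levels were 17720 to 18640 CPM in CRCM cultures and 43150 to 56200 CPM in NRCM cultures. SSA3, a stress-inducible cytosolic Hsp70, had 172, 179 and 198 CPM in CRCM cultures, against 1141, 983 and 1082 CPM in NRCM cultures (log2 fold change -2.54 ± 0.14, adjusted p = 1.42e-05). HSP104, the disaggregase that pulls apart protein aggregates, had 685, 636 and 666 CPM in CRCM cultures, against 2505, 2496 and 3057 CPM in NRCM cultures. HSP82, the inducible Hsp90, averaged 527 ± 17.8 CPM in CRCM cultures and 2148 ± 397 CPM in NRCM cultures. BTN2, which gathers misfolded proteins, averaged 93.6 ± 7.36 CPM in CRCM cultures and 415 ± 135 CPM in NRCM cultures. All 4 were lower in every CRCM culture, with adjusted p-values of 1.42e-05, 5.09e-05, 0.000117, and 0.000421. Water gave the highest mean of each (HSP104 4720.3 ± 1078 CPM). HSF1, the factor that activates the chaperone genes, was not called, at 194, 219 and 230.0 CPM in CRCM cultures, against 240.2, 232 and 224 CPM in NRCM cultures.

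General stress genes were mixed. Of 34, 19 fell and 2 rose, with a median of -0.53 (-0.18 without TMM factors, when 14 fell and 6 rose). RTN2, a reticulon-like protein of the endoplasmic reticulum, had 162, 180.1 and 199 CPM in CRCM cultures, against 752, 475 and 520.4 CPM in NRCM cultures (log2 fold change -1.66 ± 0.16, adjusted p = 9.17e-05). SOL4, a 6-phosphogluconolactonase, averaged 84.5 ± 3.08 CPM in CRCM cultures and 223 ± 8.82 CPM in NRCM cultures (adjusted p = 1.42e-05). SED1, a stress-induced cell wall protein, averaged 2772 ± 212 CPM in CRCM cultures and 6971 ± 1746 CPM in NRCM cultures (adjusted p = 0.000818). The best known members did not follow. HSP12, a small membrane-associated heat shock protein, had 3375, 4064 and 4116 CPM in CRCM cultures, against 4677, 4656 and 5032 CPM in NRCM cultures (adjusted p = 0.0876, 0.0486 without NRCM replicate 1, and 0.00377 by DESeq2). CTT1, cytosolic catalase, had 529, 609 and 707 CPM in CRCM cultures, against 614, 669 and 835 CPM in NRCM cultures (adjusted p = 0.301). MSN2, an activator of stress genes, and SPG4, a stationary phase gene, were the 2 that rose. MSN2 averaged 107 ± 3.86 CPM in CRCM cultures and 73.3 ± 15.8 CPM in NRCM cultures (adjusted p = 0.0108), and SPG4 611 ± 47.7 CPM in CRCM cultures and 374 ± 20.4 CPM in NRCM cultures (adjusted p = 0.00193). Among 30 antioxidant genes 11 fell and 3 rose (CCS1, GRX3, and YAP1), against 19.9% and 22.3% of all genes, and their median of -0.20 turned to 0.15 without TMM factors, when 7 fell and 13 rose. CCS1 was not called without CRCM replicate 2 or 3 (adjusted p = 0.0623 and 0.065). AHP1, a peroxiredoxin, averaged 367 ± 32.4 CPM in CRCM cultures and 1356 ± 104 CPM in NRCM cultures (adjusted p = 1.78e-05), and TSA1, another, 532 ± 17.6 CPM in CRCM cultures and 1599.7 ± 60.8 CPM in NRCM cultures (adjusted p = 3.34e-05). SOD2, the mitochondrial superoxide dismutase, averaged 744 ± 101 CPM in CRCM cultures and 1578 ± 191 CPM in NRCM cultures (adjusted p = 0.000328).

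The stress response element, AGGGG on either strand, is the string of letters bound by Msn2 and Msn4. It was looked for in the 300 bases from 400 to 101 before each start codon. It was present before 26 of the 34 stress genes and 15 of the 20 trehalose and glycogen genes, against 23.6% of all 5987 promoters. Over all tested genes it was present in 36.2% of promoters of genes that fell, 15.1% of those of genes that rose, and 22.6% of those not called. Those windows of GSY1 (chrVI:176492-176791, minus strand) and RTN2 (chrIV:94205-94504, plus strand), the genes with the largest fall of each list, are given 5′ to 3′ from the RefSeq R64 genome, with the match in capitals, to show where it lies.
GSY1: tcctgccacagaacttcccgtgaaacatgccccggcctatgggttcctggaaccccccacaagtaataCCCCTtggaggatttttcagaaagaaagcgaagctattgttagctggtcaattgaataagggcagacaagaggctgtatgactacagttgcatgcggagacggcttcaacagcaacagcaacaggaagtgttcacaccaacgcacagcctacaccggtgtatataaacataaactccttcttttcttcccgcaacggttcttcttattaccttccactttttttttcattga
RTN2: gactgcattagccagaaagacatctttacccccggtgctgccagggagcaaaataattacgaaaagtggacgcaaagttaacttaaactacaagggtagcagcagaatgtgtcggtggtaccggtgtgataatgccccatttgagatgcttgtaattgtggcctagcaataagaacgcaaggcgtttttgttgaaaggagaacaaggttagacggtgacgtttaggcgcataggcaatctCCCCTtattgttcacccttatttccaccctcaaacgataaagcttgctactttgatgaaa
Each holds 1 match, on the strand opposite to the gene, toward the upstream end of the window in GSY1 and toward the downstream end in RTN2. The core of the heat shock element, TTCNNGAA (the same on both strands), was found before 24 of 34 chaperone genes and 22 of the 27 that fell, against 13.8% of all promoters. Over all tested genes its share differed little by call, at 15.6% for genes that fell, 13.5% for genes that rose, and 13.3% for those not called. No match was found in this window of SSA3.

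Many iron uptake genes were lower with CRCM, while iron-sulfur cluster genes that changed were mostly higher. Of 27 iron uptake genes tested, 16 were lower and 1, the activator AFT2, higher, with a median of -0.44 (-0.09 without TMM factors, when 13 were lower and 4 higher). Their summed level was 4214 to 4891 CPM in CRCM cultures and 11910 to 19310 CPM in NRCM cultures. FIT3, a cell wall mannoprotein that holds iron-siderophore complexes, had 267, 356 and 453 CPM in CRCM cultures, against 6299.9, 2168 and 1832 CPM in NRCM cultures. NRCM replicate 1 was about 3-fold above its replicates, and all NRCM values were above all CRCM values (log2 fold change -3.06 ± 0.43, adjusted p = 0.000594). FIT2, of the same function, was more even, with 857, 920.4 and 944 CPM in CRCM cultures, against 4024, 3648 and 4032 CPM in NRCM cultures (log2 fold change -2.10 ± 0.12, adjusted p = 1.42e-05). The siderophore transporter ARN2 averaged 90.1 ± 4.77 CPM in CRCM cultures and 664 ± 232 CPM in NRCM cultures (adjusted p = 5.69e-05). TIS11, which promotes the decay of mRNAs when iron is short, had 17.1, 28.1 and 27.2 CPM in CRCM cultures, against 309, 75.8 and 60.8 CPM in NRCM cultures (log2 fold change -2.21 ± 0.52, adjusted p = 0.00752). The change was -1.47 without NRCM replicate 1.

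AFT1, the main activator of these genes, was not called, at 76.4, 84.3 and 88.7 CPM in CRCM cultures, against 96.5, 78.1 and 69.4 CPM in NRCM cultures (adjusted p = 0.825). AFT2 averaged 76.7 ± 4.96 CPM in CRCM cultures and 49.6 ± 8.92 CPM in NRCM cultures (adjusted p = 0.00346). The letters TGCACCC, the core bound by Aft1, were found on either strand before 16 of 28 iron uptake genes, against 1.45% of all promoters. It was found before 9 of the 16 genes that fell and 6 of the 10 not called. The window of FIT3 (chrXV:1061156-1061455, minus strand, R64), the iron gene that fell most, is shown 5′ to 3′ with its 2 matches in capitals.
FIT3: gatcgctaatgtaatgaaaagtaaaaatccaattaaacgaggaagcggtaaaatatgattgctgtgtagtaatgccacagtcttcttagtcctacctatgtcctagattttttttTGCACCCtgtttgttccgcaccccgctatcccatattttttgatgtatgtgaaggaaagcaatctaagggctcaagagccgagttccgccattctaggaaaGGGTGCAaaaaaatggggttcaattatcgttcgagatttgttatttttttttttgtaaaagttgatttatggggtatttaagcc
The matches lie on opposite strands.

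In mitochondria, 6 of 17 genes of iron-sulfur cluster assembly rose (35.3%, against 22.3% of all genes), 1 fell, and 10 were not called. The 1 that fell was ATM1, the exporter of the inner membrane (-0.53, not called without TMM factors, when 13 rose). The list median of 0.30 shrank to 0.10 without NRCM replicate 1 and was 0.65 without TMM factors. YFH1, frataxin, the iron donor of the assembly complex, had 195, 211 and 214 CPM in CRCM cultures, against 67.8, 122 and 112 CPM in NRCM cultures (log2 fold change 1.08 ± 0.21, adjusted p = 0.00288). NFU1, a late-acting scaffold, averaged 69.5 ± 3.31 CPM in CRCM cultures and 40.2 ± 5.95 CPM in NRCM cultures (adjusted p = 0.0012). MGE1, the nucleotide exchange factor of mitochondrial Hsp70, averaged 110.0 ± 4.38 CPM in CRCM cultures and 65.9 ± 7.84 CPM in NRCM cultures (adjusted p = 0.000685). Of 9 genes of the copper response 3 fell and 1 rose, or 2 and 3 without TMM factors. The metallothionein genes CUP1-1 and CUP1-2 are copies that reads cannot tell apart. CUP1-1 averaged 484 ± 44.2 CPM in CRCM cultures and 1691 ± 148 CPM in NRCM cultures (adjusted p = 0.000398), against 3508 ± 1449 CPM with water. Of 14 genes of the zinc response 5 rose and 1 fell, or 9 and 0 without TMM factors. ZAP1, the zinc-responsive activator, averaged 272 ± 14.2 CPM in CRCM cultures and 168 ± 17.3 CPM in NRCM cultures (adjusted p = 0.000549). ZRT1, the high-affinity zinc transporter, had 6931, 6864 and 6941 CPM in CRCM cultures, against 4930.2, 7121 and 8605 CPM in NRCM cultures and was not called.

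Transcripts of the mitochondrial ribosome were higher in CRCM cultures. Of 72 genes, 61 rose, against 22.3% of all genes, and 0 fell, with a median of 0.59 (0.94 without TMM factors, when 70 rose, and 0.48 without NRCM replicate 1). Their summed level was 6676 to 7013 CPM in CRCM cultures and 3672 to 5317 CPM in NRCM cultures. MRPL50, a protein of the large subunit, had 124, 119 and 122 CPM in CRCM cultures, against 39.98, 52.6 and 57.3 CPM in NRCM cultures. The CRCM values were within 5 CPM of each other and more than 2-fold above each NRCM value (log2 fold change 1.28 ± 0.12, adjusted p = 9.00e-05). MRPS8, of the small subunit, averaged 64.4 ± 4.61 CPM in CRCM cultures and 28.8 ± 6.91 CPM in NRCM cultures (adjusted p = 0.000475). MRPL31, of the large subunit, averaged 98.4 ± 6.39 CPM in CRCM cultures and 46.5 ± 9.01 CPM in NRCM cultures (adjusted p = 0.000378), and MRPS17, of the small, 92.7 ± 3.10 CPM in CRCM cultures and 44.7 ± 8.30 CPM in NRCM cultures (adjusted p = 0.000598). CMC2, a factor of cytochrome oxidase biogenesis, averaged 124 ± 4.34 CPM in CRCM cultures and 52.8 ± 14.1 CPM in NRCM cultures (adjusted p = 0.000533). Fewer genes of the respiratory chain were called. Of 38 nuclear-encoded subunits of the chain and ATP synthase, 8 rose (21.05%, near the 22.3% of all genes) and 2 fell (CYT1 and INH1). Without TMM factors 17 rose and 0 fell. The median was 0.01, and it turned to -0.14 without NRCM replicate 1. QCR6, of complex III, averaged 924 ± 31.7 CPM in CRCM cultures and 635 ± 87.9 CPM in NRCM cultures (adjusted p = 0.00528), and ATP19, of the ATP synthase, 377 ± 15.4 CPM in CRCM cultures and 265 ± 43.95 CPM in NRCM cultures (adjusted p = 0.00723). The falls of CYT1 (-0.32) and INH1 (-0.33) were small and turned to 0.038 and 0.029 without TMM factors. CYT1 was called neither without any 1 water or CRCM library nor without NRCM replicate 2 or 3 (adjusted p 0.0636 to 0.152). INH1 was not called without CRCM replicate 1 or 3 or NRCM replicate 2 or 3 (adjusted p 0.0596 to 0.0926). Transcripts of the mitochondrial genome, which yeast leaves without poly(A) tails, summed to 57.9 ± 8.49 CPM in CRCM cultures and 74.9 ± 55.6 CPM in NRCM cultures. Of these 8, 1 rose (OLI1, 0.69) and 0 fell (2 by edgeR and 2 by DESeq2). The call of OLI1 was lost without any CRCM library or NRCM replicate 2 or 3 (adjusted p 0.0503 to 0.0684), and the list median of -0.35 turned to 0.14 without NRCM replicate 1.

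Genes of ribosome assembly were higher with CRCM. Of 126 genes of rRNA processing and ribosome assembly, 92 rose and 1 fell (TSR3, -0.28, or 0.070 without TMM factors), with a median of 0.55 (0.89 without TMM factors). JJJ1, a co-chaperone of the last cytoplasmic steps of the large subunit, had 81.8, 83.2 and 80.1 CPM in CRCM cultures, against 30.4, 28.2 and 32.4 CPM in NRCM cultures. The libraries of each group agreed within a few CPM, and water, at 29.6 ± 0.543 CPM, was near NRCM (log2 fold change 1.40 ± 0.08, adjusted p = 1.42e-05). NOP53, a nucleolar factor of the large subunit, averaged 86.9 ± 7.95 CPM in CRCM cultures and 35.6 ± 4.42 CPM in NRCM cultures (adjusted p = 0.000156). RRP15, also of the large subunit, averaged 90.2 ± 6.64 CPM in CRCM cultures and 37.8 ± 4.30 CPM in NRCM cultures (adjusted p = 4.62e-05). BUD22, of small subunit assembly, averaged 48.96 ± 5.29 CPM in CRCM cultures and 22.4 ± 2.91 CPM in NRCM cultures (adjusted p = 0.000151). RRN11, a subunit of the core factor of RNA polymerase I, averaged 29.05 ± 3.61 CPM in CRCM cultures and 11.2 ± 3.45 CPM in NRCM cultures (adjusted p = 0.00138). RPC37, a subunit of RNA polymerase III, had 79.8, 73.2 and 75.2 CPM in CRCM cultures, against 33.5, 38.2 and 32.5 CPM in NRCM cultures (log2 fold change 1.11 ± 0.09, adjusted p = 4.62e-05). Of 20 genes of RNA polymerase I and III, 8 rose, 1 fell, and 11 were not called. Without TMM factors 17 of them rose and 0 fell.

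Of 137 cytosolic ribosomal protein genes, 15 fell (10.9%, against 19.9% of all genes) and 1 rose, RPS27A, whereas without TMM factors 1 fell and 4 rose. The summed level was 8825 to 18380 CPM in CRCM cultures and 13150 to 26800 CPM in NRCM cultures. RPL16B had 133, 55.4 and 40.9 CPM in CRCM cultures, against 273, 145 and 154 CPM in NRCM cultures, and replicate 1 was the highest library of each group. The same held for RPP1B, with 103, 59.1 and 51.6 CPM in CRCM cultures, against 197, 116 and 109 CPM in NRCM cultures. The list median of -0.48 shrank to -0.04 without NRCM replicate 1. The call of RPL16B (-1.43) was lost without CRCM replicate 2 (adjusted p = 0.0576) or CRCM replicate 3 (adjusted p = 0.0526), and that of RPP1B (-0.99) likewise (adjusted p = 0.0602 and 0.0592), and without TMM factors. The PAC element, GATGAG on either strand, known from the promoters of ribosome assembly genes, was in the window of 80 of the 126 genes, against 18.4% of all promoters. These were 56 of the 92 that rose, 23 of the 33 not called, and the 1 that fell. The window of RPC37 (chrXI:487370-487669, plus strand, R64), the polymerase subunit with the largest rise, holds 1 match, in capitals, on the strand opposite to the gene.
RPC37: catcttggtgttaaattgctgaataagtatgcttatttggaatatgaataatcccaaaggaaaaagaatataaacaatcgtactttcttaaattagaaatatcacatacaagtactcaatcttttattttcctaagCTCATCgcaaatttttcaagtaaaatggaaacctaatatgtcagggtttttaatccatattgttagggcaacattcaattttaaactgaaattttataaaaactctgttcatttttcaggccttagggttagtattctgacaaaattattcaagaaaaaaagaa
No match was found in the window of JJJ1.

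**Figure D3:**
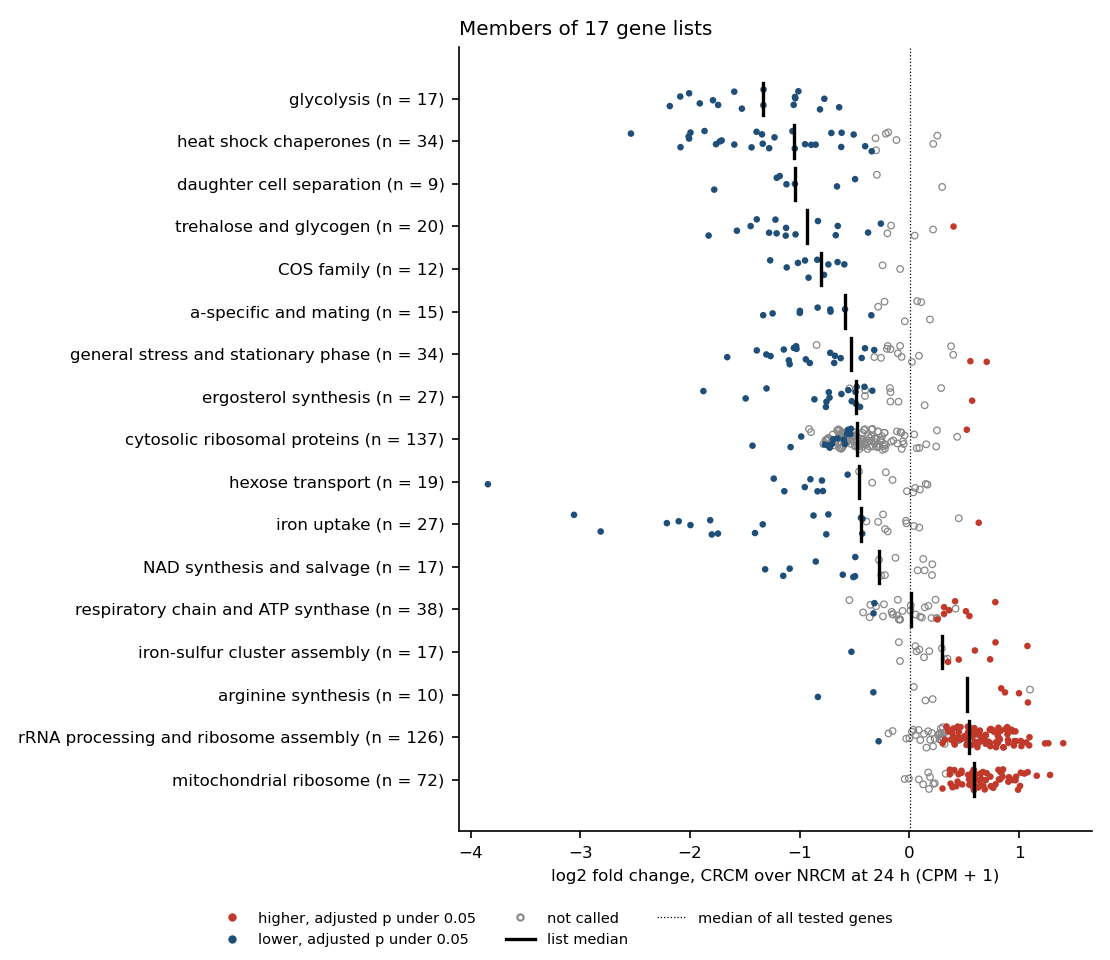
Log2 fold change, CRCM over NRCM at 24 h, of the tested members of 17 gene lists (n beside each name); filled points were called (red higher, blue lower), open points were not, black bars are list medians, and the dotted line is the median of all genes (0.0031). All 17 glycolytic genes lie left of 0 and were called, and 61 of 72 genes of the mitochondrial ribosome were called on the right.

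Several genes for the use of other amino acids as nitrogen sources were lower with CRCM. Of 12 genes of arginine, proline, GABA, and urea use, 7 fell and 2, the regulators PUT3 and UGA3, rose (median -0.53), or 4 and 2 without TMM factors. UGA3 was not called without CRCM replicate 2 or 3 (adjusted p = 0.0682 and 0.0707). CAR1 (chromosome XVI, 339944 to 340945), the arginase that opens arginine breakdown and is induced by arginine, had 32.7, 33.3 and 34.04 CPM in CRCM cultures, against 251, 227 and 216 CPM in NRCM cultures. The CRCM cultures were within 2 CPM of each other, 6.95-fold below NRCM on average, and water was between the groups at 173 ± 13.8 CPM (log2 fold change -2.76 ± 0.09, adjusted p = 4.27e-07). CAR2, ornithine aminotransferase, averaged 98.9 ± 5.85 CPM in CRCM cultures and 211 ± 21.4 CPM in NRCM cultures (adjusted p = 5.67e-05). PUT1, proline oxidase, averaged 205 ± 10.3 CPM in CRCM cultures and 401 ± 6.84 CPM in NRCM cultures (adjusted p = 4.62e-05), and DUR12, urea amidolyase, 62.2 ± 6.15 CPM in CRCM cultures and 128 ± 56.03 CPM in NRCM cultures (adjusted p = 0.0115). Of 19 amino acid permease genes 6 fell and 2 rose, or 0 and 5 without TMM factors. GAP1, the general amino acid permease, had 26.8, 31.9 and 35.6 CPM in CRCM cultures, against 244, 68.1 and 55.8 CPM in NRCM cultures. Its call rested on NRCM replicate 1 and on the fit. The log2 change of -1.61 (adjusted p = 0.0461) was -0.94 without that library (adjusted p = 0.096), and the adjusted p was 0.0536 with replicate number as a block. The call was also lost without CRCM replicate 1 (0.113), 2 (0.102), or 3 (0.0815) and without water replicate 1 or 2. DUR12 lost its call without TMM factors. In aromatic amino acid breakdown 2 of 4 genes fell and 1 rose. The transaminase ARO9, which is induced by aromatic amino acids, had 35.1, 31.9 and 33.5 CPM in CRCM cultures, against 201, 133 and 137 CPM in NRCM cultures (log2 fold change -2.17 ± 0.16, adjusted p = 3.02e-05). Its paralog ARO8 averaged 120.1 ± 13.1 CPM in CRCM cultures and 228 ± 12.6 CPM in NRCM cultures (adjusted p = 0.000117).

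Genes of arginine synthesis changed in both directions. Of 10 genes, 4 rose (ARG1, ARG3, and ARG5,6 among them) and 2 fell (ARG4 and ARG7), or 8 and 1 without TMM factors, with a median of 0.53. ARG1, argininosuccinate synthetase, had 365, 411 and 437 CPM in CRCM cultures, against 151, 220.2 and 206 CPM in NRCM cultures (log2 fold change 1.08 ± 0.14, adjusted p = 0.000355). All 3 CRCM values were above all NRCM values. The ARG5,6 gene (listed as ARG56), whose product is cut into enzymes of ornithine synthesis, averaged 201 ± 5.79 CPM in CRCM cultures and 113 ± 18.2 CPM in NRCM cultures (adjusted p = 0.000466). CPA1, a subunit of carbamoyl phosphate synthetase, had 2998, 2927 and 3024 CPM in CRCM cultures, against 599, 2082 and 2158 CPM in NRCM cultures. Its adjusted p of 0.0548 passed with replicate number as a block (0.0448), without NRCM replicate 1 (0.00417, change 0.51), NRCM replicate 2 (0.0333), or NRCM replicate 3 (0.0276). ARG7 was not called without CRCM replicate 1 or 2 or NRCM replicate 2 or 3 (adjusted p 0.0516 to 0.122), and its change turned to 0.024 without TMM factors. ARG3, ornithine carbamoyltransferase, was called at adjusted p = 0.0364. It lost the call without CRCM replicate 1, 2, or 3 (adjusted p 0.0637, 0.11, and 0.0757) and without water replicate 1 or 3. Of 9 lysine genes 3 fell, LYS1, LYS4, and LYS9, and 1 rose, LYS20, the homocitrate synthase that begins the pathway, with a median of -0.26 that turned to 0.09 without TMM factors, when 3 fell and 3 rose. LYS1, the last enzyme, had 64.7, 64.5 and 64.6 CPM in CRCM cultures, against 163, 155 and 153 CPM in NRCM cultures (log2 fold change -1.27 ± 0.07, adjusted p = 1.42e-05).

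ARG1 and LYS1 are both known targets of Gcn4, the activator of general amino acid control. The letters TGACTC on either strand were in 9 of 10 arginine windows and 4 of 9 lysine windows, against 8.47% of all promoters. Their windows, ARG1 at chrXV:218811-219110 (plus strand) and LYS1 at chrIX:420837-421136 (minus strand) of R64, are shown because both hold 2 matches (capitals) while the transcripts changed in opposite directions.
ARG1: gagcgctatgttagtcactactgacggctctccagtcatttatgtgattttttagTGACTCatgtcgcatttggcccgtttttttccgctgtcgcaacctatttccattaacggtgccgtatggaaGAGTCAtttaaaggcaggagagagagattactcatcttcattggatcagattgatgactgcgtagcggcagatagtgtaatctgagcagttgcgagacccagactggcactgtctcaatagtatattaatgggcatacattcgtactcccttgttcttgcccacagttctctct
LYS1: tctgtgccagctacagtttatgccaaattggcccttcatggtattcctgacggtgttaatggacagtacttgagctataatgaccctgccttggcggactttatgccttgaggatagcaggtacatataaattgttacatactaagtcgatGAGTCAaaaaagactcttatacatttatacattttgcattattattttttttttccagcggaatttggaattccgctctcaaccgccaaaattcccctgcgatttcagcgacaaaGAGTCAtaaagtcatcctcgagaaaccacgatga
In ARG1 the matches lie on opposite strands, and in LYS1 both lie on the same strand.

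Genes of nucleotide synthesis and salvage changed in both directions. Of 14 genes of pyrimidine synthesis and uptake 6 fell and 4 rose, or 5 and 6 without TMM factors. URA1, dihydroorotate dehydrogenase, had 220.4, 149 and 135 CPM in CRCM cultures, against 807, 693 and 689 CPM in NRCM cultures (log2 fold change -2.14 ± 0.21, adjusted p = 9.35e-05). URA2, the first enzyme of the pathway, averaged 852 ± 57.2 CPM in CRCM cultures and 2333 ± 210.5 CPM in NRCM cultures (adjusted p = 8.26e-05). Every CRCM culture was below every NRCM culture for both. The 4 that rose were the salvage genes FUR1, URK1, and FCY1 and the activator PPR1. FCY1 was not called without CRCM replicate 2 or 3 (adjusted p = 0.0543 and 0.0501). In the purine list 10 of 23 fell and 4 rose. ADE17, of the last steps of IMP synthesis, averaged 66.3 ± 10.1 CPM in CRCM cultures and 255 ± 107 CPM in NRCM cultures (adjusted p = 0.000416). The purine-cytosine permease FCY2 rose, at 1109.7 ± 31.8 CPM in CRCM cultures and 585 ± 237 CPM in NRCM cultures (adjusted p = 0.014), as did HPT1, a salvage phosphoribosyltransferase, at 100.1 ± 8.56 CPM in CRCM cultures and 49.01 ± 2.43 CPM in NRCM cultures (adjusted p = 6.02e-05). The median of the purine list, -0.24, turned to 0.11 without TMM factors, when 3 fell and 9 rose. Of 24 one-carbon genes 9 fell and 2 rose (FAU1 and MET7), with a median of -0.22 that turned to 0.13 without TMM factors, when 3 fell and 6 rose. GCV1, of the glycine cleavage complex, averaged 32.9 ± 2.35 CPM in CRCM cultures and 80.1 ± 30.1 CPM in NRCM cultures (adjusted p = 0.00308), and ADE3, which interconverts folates, 228 ± 12.7 CPM in CRCM cultures and 463 ± 28.7 CPM in NRCM cultures (adjusted p = 0.000119). Of 17 genes of NAD synthesis 8 fell and 0 rose (median -0.28, 0.08 without TMM factors, when 4 fell and 5 rose). TNA1, the nicotinic acid permease, averaged 246 ± 5.18 CPM in CRCM cultures and 553 ± 91.5 CPM in NRCM cultures (adjusted p = 0.000128), and PNC1, nicotinamidase, 318 ± 9.21 CPM in CRCM cultures and 679 ± 33.6 CPM in NRCM cultures (adjusted p = 9.54e-05). SIR2, the NAD-dependent deacetylase of silent chromatin, had 17.6, 19.3 and 19.8 CPM in CRCM cultures, against 40.6, 37.5 and 35.4 CPM in NRCM cultures (log2 fold change -0.96 ± 0.09, adjusted p = 7.05e-05). Of 23 genes of vitamin B6 and thiamine 11 fell and 3 rose, or 7 and 8 without TMM factors. THI4, of thiamine synthesis, averaged 30.2 ± 3.88 CPM in CRCM cultures and 126 ± 57.5 CPM in NRCM cultures (adjusted p = 0.000377).

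Several genes of the cell surface were lower. TIP1, a cell wall mannoprotein, had 149, 118 and 122 CPM in CRCM cultures, against 1079.6, 1597 and 2049 CPM in NRCM cultures, a 12.2-fold difference of means with no overlap (log2 fold change -3.56 ± 0.25, adjusted p = 2.85e-05). Of 30 cell wall genes 11 fell and 1 rose (TIR4, 0.28), with a median of -0.37 (-0.01 without TMM factors, when 7 fell and 4 rose). The call of TIR4 was lost without any CRCM library (adjusted p 0.0677 to 0.119), without NRCM replicate 1 or 3 (0.0507 and 0.0956), without water replicate 3 (0.0507), and with replicate number as a block (0.073). HSP150, a wall protein with internal repeats, averaged 823 ± 57.1 CPM in CRCM cultures and 3334 ± 1187 CPM in NRCM cultures (adjusted p = 0.000193), and PIR3, of the same family, 567 ± 34.1 CPM in CRCM cultures and 2109 ± 728 CPM in NRCM cultures (adjusted p = 0.00017). Of 9 genes that daughter cells express to cut the septum, 7 fell and 0 rose (1 at an unadjusted p under 0.05), with a median of -1.04, or 5 and 1 without TMM factors. DSE4, a glucanase of that set, had 51.9, 37.05 and 36.6 CPM in CRCM cultures, against 136, 139 and 158 CPM in NRCM cultures (log2 fold change -1.78 ± 0.14, adjusted p = 4.06e-05). SCW11, a wall protein related to glucanases, averaged 49.7 ± 16.96 CPM in CRCM cultures and 110.4 ± 10.4 CPM in NRCM cultures (adjusted p = 0.00134), and EGT2, an endoglucanase-like protein, 76.2 ± 21.2 CPM in CRCM cultures and 164 ± 23.7 CPM in NRCM cultures (adjusted p = 0.00116). CRCM replicate 1 was the highest CRCM library for all 3. Among a-specific and mating genes 9 of 15 fell and 0 rose (median -0.59), but 6 fell and 4 rose without TMM factors (median -0.24). AGA2, the binding subunit of a-agglutinin, averaged 27.6 ± 3.92 CPM in CRCM cultures and 70.8 ± 7.27 CPM in NRCM cultures (adjusted p = 0.000128). BAR1, the protease that destroys α-factor, averaged 46.2 ± 11.9 CPM in CRCM cultures and 109 ± 13.3 CPM in NRCM cultures (adjusted p = 0.000466), and MFA1, a precursor of a-factor, 99.3 ± 12.03 CPM in CRCM cultures and 199 ± 18.7 CPM in NRCM cultures (adjusted p = 0.000321).

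Several genes of membrane lipids were lower as well. Of 27 ergosterol genes 17 fell and 1, the isomerase IDI1, rose, with a median of -0.49 (-0.13 without TMM factors, when 8 fell and 3 rose). ERG25, C-4 methyl sterol oxidase, had 102, 83.8 and 80.9 CPM in CRCM cultures, against 688, 237 and 216 CPM in NRCM cultures (log2 fold change -1.88 ± 0.36, adjusted p = 0.00292). ERG3, C-5 sterol desaturase, averaged 270.4 ± 9.90 CPM in CRCM cultures and 710.0 ± 318 CPM in NRCM cultures (adjusted p = 0.00309). NRCM replicate 1 was again the highest NRCM library, near water. OLE1, the fatty acid desaturase, fell evenly, at 2021, 1855 and 1779.9 CPM in CRCM cultures, against 3557, 3525 and 3379 CPM in NRCM cultures (adjusted p = 0.00211). Of 8 vacuolar protease genes 6 fell and 0 rose, or 3 and 1 without TMM factors. PRB1, proteinase B, averaged 861 ± 38.5 CPM in CRCM cultures and 1897 ± 355 CPM in NRCM cultures (adjusted p = 0.000323), and APE1, a vacuolar aminopeptidase, 54.3 ± 5.55 CPM in CRCM cultures and 168 ± 54.8 CPM in NRCM cultures (adjusted p = 0.000244). Of 8 ribonucleotide reductase genes 5 fell and 0 rose, or 4 and 1 without TMM factors. Among them was the small subunit RNR2 at 127 ± 8.03 CPM in CRCM cultures and 315 ± 89.1 CPM in NRCM cultures (adjusted p = 0.000489). The proteasome was divided, with 10 of 35 genes lower and 4 higher (RPN5, RPN8, RPN13, and RPT6), and its median of -0.10 turned to 0.25 without TMM factors, when 2 were lower and 18 higher. RPN13 was not called without CRCM replicate 2 (adjusted p = 0.0576).

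Genes near chromosome ends were often lower. Of 104 tested ORFs within 10 kb of an end, 65 fell (62.5%) and 1 rose (MIX23, 1.02), with a median of -0.55 (-0.23 without TMM factors, when 27 fell and 6 rose), and of 262 ORFs at 10 to 30 kb, 91 fell and 33 rose (median -0.19, or 0.15 without TMM factors, when 50 fell and 90 rose). In the COS family, membrane proteins encoded near many chromosome ends, 10 of 12 fell and 0 rose, with a median of -0.81. COS8 had 34.5, 36.3 and 38.1 CPM in CRCM cultures, against 87.8, 68.1 and 85.1 CPM in NRCM cultures. COS5 had 32.5, 37.05 and 37.9 CPM in CRCM cultures, against 75.5, 73.8 and 70.7 CPM in NRCM cultures. COS7 averaged 44.4 ± 1.64 CPM in CRCM cultures and 86.8 ± 3.03 CPM in NRCM cultures. The groups did not overlap for any of these 3 (adjusted p = 8.46e-05, 4.92e-05, and 3.26e-05). COS genes are near-identical copies, so reads may have been divided among them. CHA1, at 15.8 kb from its end, was 1 of the 33 that rose.

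The direction of change also followed the level of a gene and the base composition of its coding sequence. Of 160 genes with a mean over 1000 CPM, 91 fell and 1 rose (median -0.61), whereas of 1433 genes at 10 to 30 CPM, 452 rose and 171 fell (median 0.17). Among 536 genes with under 36% GC in the coding sequence 36.01% rose and 7.84% fell, and among 843 genes with over 44% GC 7.12% rose and 38.3% fell. Over classes of coding length the medians stayed between -0.06 and 0.05. Level, GC content, and gene group are linked in yeast, and whether any of the group results follows from level or GC content was not tested.

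**Figure D4:**
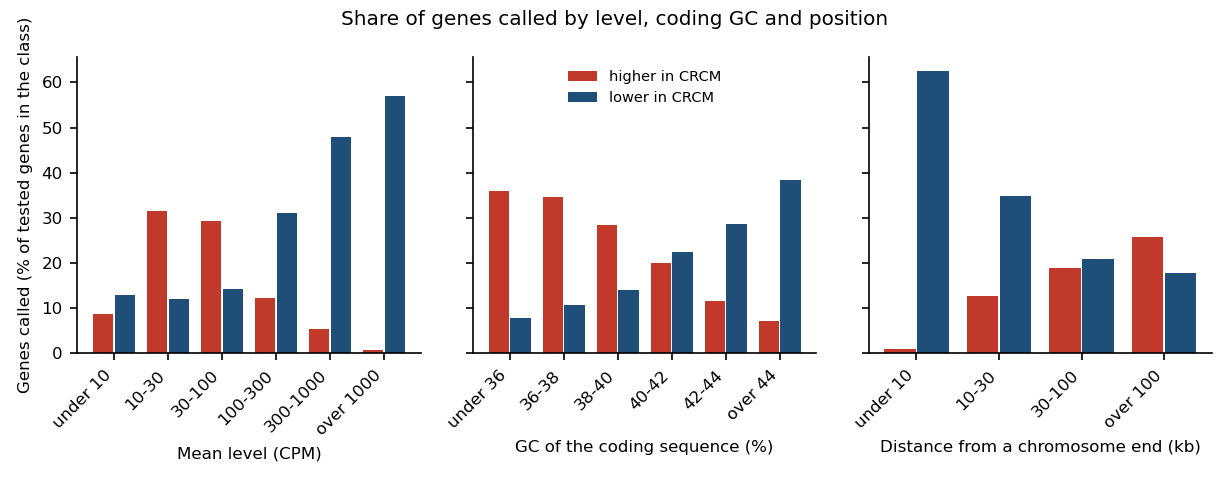
Share of tested genes called higher (red) or lower (blue) in CRCM cultures, by mean level, GC content of the coding sequence, and distance from a chromosome end. The share of genes that fell is 56.9% over 1000 CPM, 38.3% over 44% GC, and 62.5% within 10 kb of an end.

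The same contrast at 96 h served to ask which differences also held later. Of 6652 genes tested at 96 h, 17.3% were higher with CRCM and 19.7% lower. The effect at 24 h minus that at 96 h was tested over all 27 libraries, and it was higher for 900 genes (13.5% of 6658) and lower for 980 (14.7%). Without CRCM replicate 3 of 96 h, the library with LEU2 and URA3 reads, the counts were 951 and 932. Glycolytic genes had a median of 0.34 at 96 h (0.33 without that library), and the difference passed the test for 14 of 17 genes with or without it. PGK1 at 96 h averaged 2947 ± 417 CPM in CRCM cultures and 2301 ± 175 CPM in NRCM cultures, and the effect at 24 h differed from that at 96 h by -2.56 ± 0.38 on the log2 scale (adjusted p = 4.47e-05, and -2.52 without the library). The mitochondrial ribosome had a median of -0.15 at 96 h (-0.18 without it), where 5 of 72 genes were higher and 23 lower (5 and 29 without it). The difference passed for 48 genes, or 49 without the library. For daughter cell separation the median at 96 h was 0.27 (0.32 without the library), and 8 of 9 genes differed, or 6 without it. The a-specific and mating genes had a median of 0.53 (0.71 without the library), and 10 of 15 differed, or 11 without it.

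Other groups kept their direction at 96 h. Chaperones had a median of -0.77 (-0.74 without the library), with 23 of 34 lower (24 without it), and the COS family -0.81 (-0.80), with 9 of 12 lower (9 without it). Within the chaperones SSA3 was an exception, with 2674 ± 1100.2 CPM in CRCM cultures and 2149 ± 459 CPM in NRCM cultures at 96 h and an effect that differed by -2.81 ± 0.30 (adjusted p = 4.64e-07, and -3.13 without the library). Its log2 fold change at 96 h was 0.25 and not called (adjusted p = 0.517). Without the library it was 0.59 and called higher (adjusted p = 0.0466). Ribosome assembly had a median of 0.35, or 0.17 without the library, and 43 of 126 genes were higher (41 without it). The difference passed for 11 genes whose effect was higher at 24 h, a count that rested on that library and was 26 without it. CHA1 at 96 h averaged 21.3 ± 4.85 CPM in CRCM cultures and 11.5 ± 1.96 CPM in NRCM cultures (log2 fold change 0.83, adjusted p = 0.0315, or 0.73 and 0.0537 without the library). The effect at 24 h was larger by 1.53 ± 0.32 (adjusted p = 0.00112, and 1.65 without the library). CAR1 was lower at both times, with 59.4 ± 19.3 CPM in CRCM cultures and 202 ± 25.7 CPM in NRCM cultures at 96 h (log2 fold change -1.79, adjusted p = 0.000272, or -2.03 without the library). TIP1 was lower with CRCM at 24 h and higher at 96 h, with 211 ± 17.2 CPM in CRCM cultures and 126 ± 57.9 CPM in NRCM cultures at 96 h (log2 fold change 0.83, adjusted p = 0.0246, or 0.90 without the library) and a difference of -4.41 ± 0.36 (adjusted p = 1.28e-08).

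**Figure D5:**
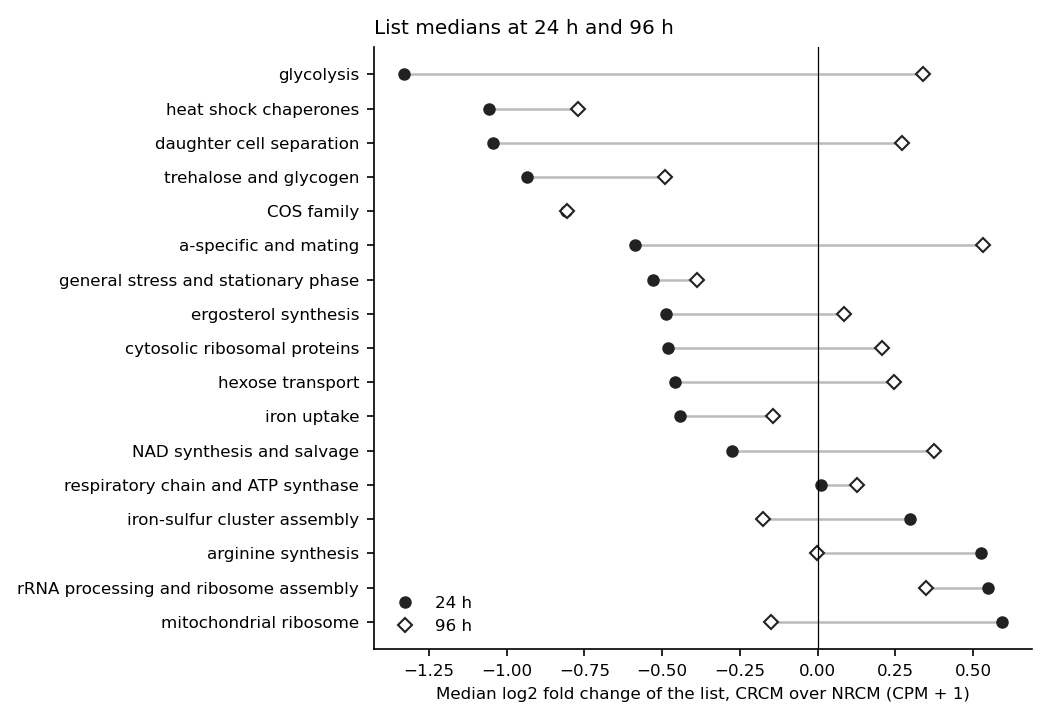
Median log2 fold change, CRCM over NRCM, of 17 gene lists at 24 h (filled circles) and 96 h (open diamonds). Glycolysis lies at -1.33 and 0.34, chaperones at -1.05 and -0.77, and the mitochondrial ribosome at 0.59 and -0.15.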

How the data were processed

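RNA of 27 cultures (CRCM, NRCM, or water at log phase, 24 h, and 96 h, 3 each) was poly(A) selected, sequenced, and aligned with bowtie2 to sacCer3, and the submitters' notes also name bedtools, edgeR, and DESeq2, with no versions. The kit is named with and without strand marking and the RNA extraction in more than 1 way by the sources, and the strand setting of the counting is not given. The 1 deposited table, which the authors titled raw counts, holds a signal that sums to 1 per library, each gene's share of the reads, for 6692 ORFs, with 0 unused columns. Shares were multiplied to CPM. Because values step by 1 read, whole reads were recovered (100% of testable values in the 24 h libraries, at least 98.9551% in any library, tolerance 0.1 read), 7818193 to 114285580 per compared library. Depth intervals would cover counting error only, which is small beside the spread between cultures.

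The main test was limma 3.58.1 (eBayes with trend, R 4.3.3) on log2(CPM + 1) with TMM factors (edgeR 4.0.16) of the 9 libraries of 24 h, for genes at 1 CPM or more in at least 3 of them. A fold change on this scale understates that of low genes. TMM factors were 1.19 to 1.21 for CRCM and 0.905 to 0.958 for NRCM. On simulated counts for this comparison (6565 genes tested) the test called 55.2% of 67 genes changed 1.5-fold, 97% of 67 changed 2-fold, 100% of 66 changed 4-fold, and 0.11% of 6365 unchanged. The difference of effects between times was an interaction in 1 fit of 27 libraries. Alternatives were no TMM factors, DESeq2 size factors, pseudocounts of 0.25 and 4 CPM, no filter and a filter of 10 CPM, edgeR's quasi-likelihood test and DESeq2 1.42.0 on recovered reads, other sets of libraries, each library left out, and a replicate block.

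Replicate numbers come from the labels. Deviations from the group means of same-numbered CRCM and NRCM libraries correlated at 0.34, 0.227, and 0.228 across genes. Pairs with unlike numbers ran from -0.384 to 0.357, the highest being CRCM replicate 3 with NRCM replicate 2. Whether the numbers pair the cultures is thus not settled, and blocked values are given where they change a call. No pair of libraries of a group agreed within sampling noise (chi-square per degree of freedom of 5.823 or more).

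Named genes were the 15 largest rises and 15 largest falls among genes with an adjusted p under 0.05, a mean of 10 CPM or more in the higher group, and no overlap of groups (2612 genes), up to 4 called members of each list, members needed to say what was not called, CHA1, and the marker genes of the strain. The comparison, the 66 gene lists, and the tests were chosen with earlier results of these data known, and the lists give no independent support. IDs, coordinates, and sequences are from the RefSeq R64 assembly (sacCer3), in which 6008 of 6692 IDs matched. Motifs were searched on both strands of 5987 windows. Near-identical copies and overlapping genes may share reads.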

Additional observations from a re-analysis of the deposited data

Results flagged for a closer look

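Because the effect of CRCM against NRCM at 24 h differed from that at 96 h by the interaction test (limma over 27 libraries, adjusted p under 0.05), 900 genes were marked for a higher and 980 for a lower effect at 24 h. Among the 30 largest changes at 24 h, 22 were marked, and each of the 22 still passed without CRCM replicate 3 of 96 h. The differences below were computed with that library. The 22 count both genes of the pairs PGK1 and YCR013C, ARO9 and YHR137C-A, and JJJ1 and YNL228W, each best read as 1 observation. The 30 also include the pair MNC1 and YBR056C-B. All 22 differed in the direction of their change at 24 h. They were chosen for large changes in the same 24 h libraries, which favours that direction, so it is no separate result. Of genes that rose, the effect at 24 h minus that at 96 h was 1.53 for CHA1, 1.14 for ZPS1, 1.13 for JJJ1, 1.05 for YNL228W, 1.27 for YDL177C, 0.93 for MRPL50, 1.09 for CMC2, 1.27 for RRP15, and 0.75 for RHO5. Among genes that fell it was -4.41 for TIP1, -2.63 for HXT4, -2.56 for FIT3, -2.54 for ARN2, -0.997 for CAR1, -2.81 for SSA3, -2.19 for YHL046W-A, -1.39 for GPD1, -2.09 for TIS11, -2.56 for PGK1, -2.54 for YCR013C, -2.87 for ARO9, and -2.82 for YHR137C-A. Among the 22, JJJ1, YNL228W, and RRP15 did not pass without some other single libraries (adjusted p 0.0508 to 0.0875), nor CAR1 without TMM factors (-0.61, adjusted p = 0.0598). Of 126 other called genes named, 66 differed, 65 of them in the direction of their change at 24 h. These genes were called in the same 24 h libraries, which favours that direction. Such a difference need not mean a larger effect at 24 h, as SER3 changed by 0.587 at 24 h and by -1.53 at 96 h.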

How the results depend on the processing

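Leaving out the TMM factors moved the counts of 24 h calls to 3450 higher and 544 lower, and those of the interaction with time to 2386 higher and 401 lower. It reversed TSR3 (0.070), CYT1 (0.038), INH1 (0.029), and ARG7 (0.024), ended the calls of PFK1, SHM1, SHM2, LCB1, CHO1, ICL1, DUR12, GAP1, RPP1B, and ATM1, and moved the medians of 59 of 66 lists by more than their spread. Under the other settings of scaling, pseudocount, filter, tool, library set, and block, counts at 24 h stayed between 1223 and 1467 higher and between 1067 and 1493 lower. Leaving out 1 library gave 1041 (without CRCM replicate 2) to 1845 (without NRCM replicate 1) higher and 977 to 1518 lower, and for the interaction 700 to 951 higher and 772 to 948 lower. The replicate block gave 1423 rises and 1339 falls at 24 h, of which 2625 were also called without it, and 1092 and 1166 genes for the interaction. Of the genes named, the block of 9 libraries ended the calls of GAP1 and TIR4, brought in CPA1, and changed no other call. Of 156 called genes named, 136 kept their call whichever library was left out, and 128 kept it under every alternative run. The fit of 27 libraries ended the calls of SER33, LCB1, CYT1, INH1, QCR6, OLI1, TSR3, and TIR4, and that of the 6 CRCM and NRCM libraries those of LCB1, PDC1, ICL1, CYT1, INH1, ARG3, and TIR4. At 96 h, without CRCM replicate 3, an alternative chosen after seeing the data, 1333 genes were higher and 1484 lower, against 1150 and 1313 with it. With 3 cultures per group, the test called 55.2% of simulated 1.5-fold changes and 97% of 2-fold changes, so small changes could be missed. The median absolute log2 change of the called genes was 0.56, under 2-fold.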
